A study of Drosophila melanogaster with 2 samples.

Results

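The 468 peaks described here are Brinker peaks between genes and away from promoters. They were taken from the 3413 peaks on genome build dm6 that the authors retained after applying the irreproducible discovery rate (IDR), a filter for peaks whose ranks match between replicates. A peak was kept when its summit lay on arm 2L, 2R, 3L, 3R, 4 or X, outside every annotated gene body with transposable elements left out, and more than 500 bp from the nearest transcription start site (TSS) of any gene, protein-coding or not. They made up 13.7% of the list and 13.8% of its 3380 peaks on the arms (95% Wilson interval 12.7 to 15.1, counting error only). The other peaks on the arms were 1505 promoter peaks, within 500 bp of a TSS, 1305 distal intronic peaks, in a gene body but in no exon and over 500 bp from a TSS, and 102 exonic peaks. No measured signal entered the choice beyond the authors' own IDR threshold.

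The samples were whole larvae of Drosophila melanogaster in the third instar, at the wandering stage, males and females pooled, from a transgenic line named brk-GFP that stably carries Brinker with a C-terminal green fluorescent protein tag. The sample notes name an anti-GFP antibody for the chromatin immunoprecipitation (ChIP), whereas the antibody label names brk, and the notes were followed here. Chromatin was sheared by sonication, and the 2 biological replicates are numbered 3 and 4. All values come from this single group, the tagged line, and no untagged, mutant or differently staged larvae were analysed. Whole larvae mix all tissues, so a peak cannot be assigned to a cell type, and the level of the tagged protein relative to native Brinker is not given in the sources used here.

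Brinker is a DNA-binding repressor of genes that respond to Dpp, the fly BMP ligand. Dpp signalling acts through the Smad proteins Mad and Medea, which with Schnurri silence brk, so that Brinker and active Mad form opposing gradients in tissues such as the wing imaginal disc. Brinker binds a GC-rich site that overlaps in sequence with sites of Mad. In the fly genome enhancers lie in introns and in sequence between genes, often kilobases from the promoters they serve.

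The windows printed next are 201 bases centred on a summit, read from the Release 6 genome file of RefSeq on dm6 coordinates. They were chosen after the values were seen. The first pair are the strongest intergenic peaks on the arms printed here, and the capital marks the base at the deposited summit.
COX7AL2 and CG31668, chr2L:2202293-2202493, plus strand: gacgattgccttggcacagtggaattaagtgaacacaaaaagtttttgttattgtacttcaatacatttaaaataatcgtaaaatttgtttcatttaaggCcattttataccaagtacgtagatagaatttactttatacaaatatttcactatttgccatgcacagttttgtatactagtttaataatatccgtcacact
CG43245 and lncRNA:CR44544, chr3L:10776480-10776680, plus strand: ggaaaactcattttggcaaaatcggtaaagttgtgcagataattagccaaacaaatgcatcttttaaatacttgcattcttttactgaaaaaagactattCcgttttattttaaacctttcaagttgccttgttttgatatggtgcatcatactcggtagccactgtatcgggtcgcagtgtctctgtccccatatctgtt

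The next 4 windows come from strong intergenic peaks that hold the Brinker site, written GGCGNN with C or T at each N and searched on both strands. Capitals mark every match, including those that read on the minus strand.
tRNA:Ile-TAT-1-2 and CG13898, chr3L:781229-781429, plus strand: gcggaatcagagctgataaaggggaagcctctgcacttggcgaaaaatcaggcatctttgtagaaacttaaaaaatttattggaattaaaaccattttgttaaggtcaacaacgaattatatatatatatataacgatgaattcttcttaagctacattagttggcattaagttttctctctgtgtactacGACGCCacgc
tRNA:Ile-TAT-1-2 and CG13898, chr3L:802779-802979, plus strand: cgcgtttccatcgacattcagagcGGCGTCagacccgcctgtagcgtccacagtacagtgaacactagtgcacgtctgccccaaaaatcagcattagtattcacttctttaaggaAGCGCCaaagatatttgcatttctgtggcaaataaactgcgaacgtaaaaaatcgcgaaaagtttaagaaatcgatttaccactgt
C15 and sp3, chr3R:21520243-21520443, plus strand: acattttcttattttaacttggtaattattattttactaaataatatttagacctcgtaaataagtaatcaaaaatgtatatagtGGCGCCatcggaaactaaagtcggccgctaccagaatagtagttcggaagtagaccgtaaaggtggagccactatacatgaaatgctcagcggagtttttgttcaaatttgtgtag
Wnt6 and Wnt10, chr2L:7358124-7358324, plus strand: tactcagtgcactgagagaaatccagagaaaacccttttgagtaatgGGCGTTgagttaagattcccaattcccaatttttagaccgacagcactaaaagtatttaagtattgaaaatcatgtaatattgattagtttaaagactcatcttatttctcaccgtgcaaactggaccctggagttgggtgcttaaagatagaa

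The last pair hold other motifs searched. Capitals mark the Grainyhead motif, a site of AACC and GTT parted by A or G, in the window beside E(spl)malpha-BFM, and the AP-1 motif, TGANTCA with C or G at N, in the window beside kay.
lncRNA:CR45039 and E(spl)malpha-BFM, chr3R:26009057-26009257, plus strand: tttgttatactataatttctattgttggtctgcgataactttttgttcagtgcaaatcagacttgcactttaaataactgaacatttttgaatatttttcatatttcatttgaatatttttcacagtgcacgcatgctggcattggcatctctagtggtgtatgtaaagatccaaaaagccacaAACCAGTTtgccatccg
lncRNA:CR44953 and kay, chr3R:29763240-29763440, plus strand: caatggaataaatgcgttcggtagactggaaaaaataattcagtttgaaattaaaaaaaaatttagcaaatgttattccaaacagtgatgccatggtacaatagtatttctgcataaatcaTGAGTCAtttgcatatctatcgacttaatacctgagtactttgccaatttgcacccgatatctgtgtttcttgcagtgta

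Neither of the strongest windows printed held a Brinker site, and their GC content was 28.9% beside COX7AL2 and 36.8% beside CG43245. In the window between C15 and sp3 the site reads the same on both strands, whereas the first window beside CG13898 holds it on the minus strand near its end. Among all intergenic peaks 57 of 468 windows (12.2%) held the site and 411 did not.

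The signal of a peak is the value deposited for it, whose scale is not stated, and it serves here to rank peaks. Signal of the intergenic peaks on the IDR list ran from 82.6 to 881 with a median of 117 and quartiles of 93.5 and 160. The strongest lay on 2R between Su(z)2, a relative of the Polycomb group gene Psc, and CG13323, at 13035194 to 13035493, with 419 in replicate 3 and 478 in replicate 4. It was the peak of rank 10 among all on the arms. Next was the 2L peak between COX7AL2 and CG31668, whose replicate signals were 382 and 400. On 2R, the peak between Aldh-III and wech had 253 in replicate 3 and 319 in replicate 4. Both replicates thus placed these 3 peaks well above the intergenic median, which was 59.3 in replicate 3 and 61.7 in replicate 4.

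Genes with developmental roles bordered several of the 25 strongest intergenic peaks. The peak beside hid, a cell death activator gene, had 139 in replicate 3 and 226 in replicate 4, and lay 974 bp from the TSS of lncRNA:CR45234. The peak beside E(spl)malpha-BFM, a Bearded family gene whose product restrains Notch signalling, had 147 and 195, and that beside kay, the fly Fos gene, had 128 and 177. In all 3 the value of replicate 4 was the higher one. The peak upstream of ex, a Hippo pathway gene, went the other way, with 169 in replicate 3 and 127 in replicate 4, and lay 3709 bp from the ex TSS. Near fng, whose enzyme modifies Notch, the values were 142 and 154, and between C15, a homeobox gene, and sp3 they were 140 and 149. The peak between Tollo, a Toll-like receptor gene, and Best4 had 157 and 174 although the nearest TSS was 25134 bp away. Between elB, a zinc finger gene, and ppk, a sodium channel gene, the values were 158 and 193.

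Others of the strongest bordered genes with no assigned role here or noncoding genes. The peak between CG43245 and lncRNA:CR44544 had 255 in replicate 3 and 239 in replicate 4, and the strongest beside CG13898 had 210 and 216. The strongest peak of the interval from CG18404 to lncRNA:CR46113 had 168 and 184. Among all intergenic peaks, the nearest TSS belonged to a protein-coding gene for 288 and to a noncoding RNA gene for 166. It belonged to a tRNA gene for 11, to a pseudogene for 2 and to a snoRNA gene for 1. The share of intergenic sequence nearest to each kind of gene was not computed. Whether the peaks differ from that sequence was therefore not tested.

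Of the 468 intergenic peaks, 466 overlapped an entry in both replicate lists by at least 1 bp. The 2 without an entry in replicate 4 were the del to E2f2 peak (76.1 in replicate 3) and one between ich and CAHbeta (49.0). IDR filters peaks for ranks that match between replicates, yet 26 distal intronic and 102 promoter peaks on the list had no entry in replicate 4. These counts describe the list and are no separate evidence of binding. An entry in both lists was more frequent among intergenic peaks (99.6%) than among distal intronic peaks (1278 of 1305, 97.9%, Fisher's exact adjusted p = 0.0173) and promoter peaks (1402 of 1505, 93.2%, Fisher's exact adjusted p = 3.5e-10). Without replicate 3, that is among the 3380 strongest peaks of replicate 4 on the arms, neither difference passed (Fisher's exact adjusted p of 1 and 0.121). Each of those peaks has a replicate 4 entry by construction, and nearly all missing entries were in replicate 4, so that setting is no check. The difference from intronic peaks did not pass with protein-coding genes alone (Fisher's exact adjusted p = 0.0805) or among the 1690 strongest IDR peaks on the arms (adjusted p = 0.458). The strongest overlapping entry gave the replicate signal used throughout.

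**Figure D1:**
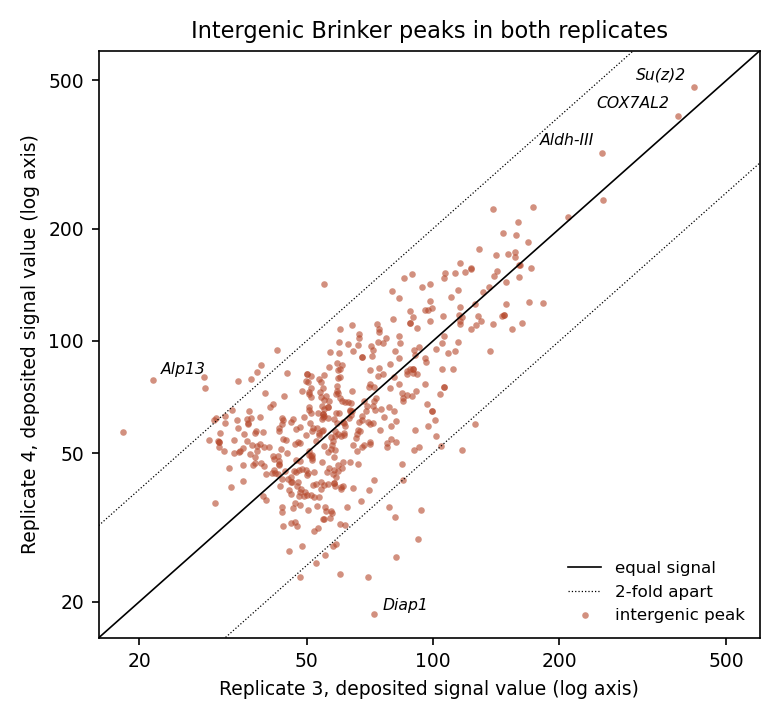
Deposited signal in replicate 3 (horizontal) and replicate 4 (vertical) of the 466 intergenic peaks with an entry in both, on log axes, 1 point per peak; the solid line marks equal signal and the dotted lines a 2-fold difference. The strongest peaks lie close to equality, and 28 peaks lie outside the dotted lines, 16 of them towards replicate 3 and 12 towards replicate 4.

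Replicate signals of the 466 peaks varied together, with a Pearson correlation of log2 signal of 0.68 and a Spearman correlation of 0.602. These describe a range cut at the IDR threshold and peaks of the same 2 libraries. Replicate 3 over replicate 4 gave a median log2 ratio of -0.04, with an SD of 0.52. It was 0.02 (SD 0.55) among distal intronic peaks and 0.06 (SD 0.56) among promoter peaks. Replicate 3 was the higher in 220 of 466 intergenic peaks (47.2%), 655 of 1278 distal intronic peaks (51.3%, Fisher's exact adjusted p = 0.144) and 769 of 1402 promoter peaks (54.9%, Fisher's exact adjusted p = 0.00904). The difference from promoters did not pass among the 1690 strongest peaks (Fisher's exact adjusted p = 0.0525). Nor did it pass among the 3380 strongest replicate 3 peaks on the arms (Fisher's exact adjusted p = 0.0602). That set was picked by replicate 3 signal, which enters the ratio itself, so it is no check of the difference.

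The most uneven intergenic peaks were weak. The peak 2234 bp from the TSS of Diap1, a caspase inhibitor gene, had 72.4 in replicate 3 and 18.6 in replicate 4. The one between Alp13 and lncRNA:CR45054 had 21.5 in replicate 3 and 78.6 in replicate 4. An uneven stronger peak, between corto, a chromatin factor gene, and CG43131, had 117 in replicate 3 and 50.9 in replicate 4. Such peaks rest on 1 replicate more than on the other. Taking the 3380 strongest entries of each replicate on the arms, 345 intergenic peaks (73.7%) met one in replicate 3 and 394 (84.2%) one in replicate 4.

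Ranked with all peaks on the arms, intergenic peaks were weaker than promoter peaks, and no difference from distal intronic peaks was detectable. At or above the median of 119 were 220 of 468 intergenic peaks (47.0%), 603 of 1305 distal intronic peaks (46.2%, Fisher's exact adjusted p = 0.787) and 823 of 1505 promoter peaks (54.7%, Fisher's exact adjusted p = 0.00835). Median signals were 117 in intergenic, 116 in distal intronic and 125 in promoter peaks. With a TSS distance over 1000 bp the difference from promoters was -4.41 percentage points and no longer passed (Fisher's exact adjusted p = 0.257), nor did it pass within the 1690 strongest peaks on the arms (adjusted p = 0.0978).

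The distance from summit to nearest TSS ran from 502 to 35921 bp, with a median of 2761 bp and quartiles of 1236 and 5711 bp. Within 2000 bp lay 198 peaks, over 2000 and up to 5000 bp 127, over 5000 and up to 10000 bp 100 and beyond 10000 bp 43. Their median signals were 116, 123, 115 and 106 in that order. Among the 234 peaks farther than the median distance, 119 (50.9%) reached the intergenic median signal, and among the 234 nearer ones 115 (49.1%, Fisher's exact p = 0.782), so no difference was detectable.

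**Figure D2:**
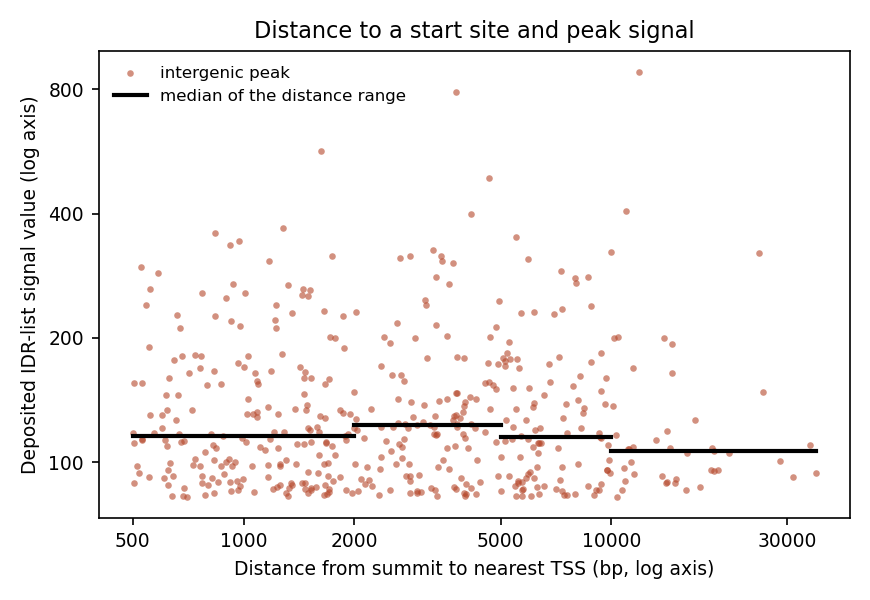
Deposited IDR-list signal of the 468 intergenic peaks (vertical, log axis) against the distance of the summit from the nearest TSS (horizontal, bp, log axis), 1 point per peak, with black lines for the median signal of each distance range. The medians stay between 106 and 123, and the strongest peak, at 881, lies 11917 bp from a TSS.

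The farthest peak lay 35921 bp from a TSS, between AOX4, an aldehyde oxidase gene, and CG43335, with 58.6 in replicate 3 and 40.9 in replicate 4. The next 3 lay between NijA and CG43245, at 34674, 31087 and 28784 bp, and the fifth between Tollo and Best4 at 25813 bp, with 59.7 in replicate 3 and 99.5 in replicate 4. At the threshold, the nearest peaks counted were those of nrv1 at 502 bp (signal 118), lncRNA:CR43648 at 504 bp (111) and l(3)neo38 at 504 bp (156). The nearest ones outside genes but left out were those of ringer at 497 bp (83.1), Ugt35A1 at 492 bp (91.4) and by at 481 bp (173).

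Some intervals held several intergenic peaks. Of 6516 intergenic intervals with any sequence over 500 bp from a TSS, 311 (4.77%) held a peak. They held 1 peak in 218 cases, 2 in 54, 3 in 27 and 4 or more in 12. Intervals with several thus held 250 of the 468 peaks (53.4%). Intervals with a peak were also longer, with a median of 8020 bp against 1661 bp for all 6516, and the part of length in this count was not tested. Some summits lay closer together than the median peak width of 416 bp. The 2 between lncRNA:CR46006 and lncRNA:CR45245 stood 199 bp apart, and the 3 between Dyro and CG7573 lay within 568 bp. Each entry was counted as a separate peak, so several may come from 1 bound region, which was not tested.

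The interval between CG18404 and lncRNA:CR46113 on 3R, 18664 bp long, held 9 peaks. Their signals ran from 85.4 to 358 with a median of 194, above the 117 of all intergenic peaks. The strongest, at 30272577 to 30272816, lies at the CR46113 end, and the next, at 30265509 to 30265744, had 136 in replicate 3 and 140 in replicate 4. The interval between NijA, a gene of the ninjurin family, and CG43245 on 3L also held 9 peaks. It spans 75047 bp, and its peaks were weaker, between 92.2 and 194. Its strongest peak had 54.9 in replicate 3 and 142 in replicate 4.

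On 3L, 6 peaks lay between tRNA:Ile-TAT-1-2 and CG13898, among them the peaks at 781199 to 781465 and 802804 to 803011 whose windows are printed with their Brinker sites. The second of these had 151 in replicate 3 and 171 in replicate 4. The adjoining interval, from hng3 to tRNA:Ile-TAT-1-1, held 4 more, the strongest at 229. Between lncRNA:CR45737 and sty, the gene of the receptor tyrosine kinase antagonist Sprouty, 5 peaks stood within 6545 bp. Their strongest had 132 in replicate 3 and 135 in replicate 4. Beside hid 4 peaks stood within 10530 bp.

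**Figure D3:**
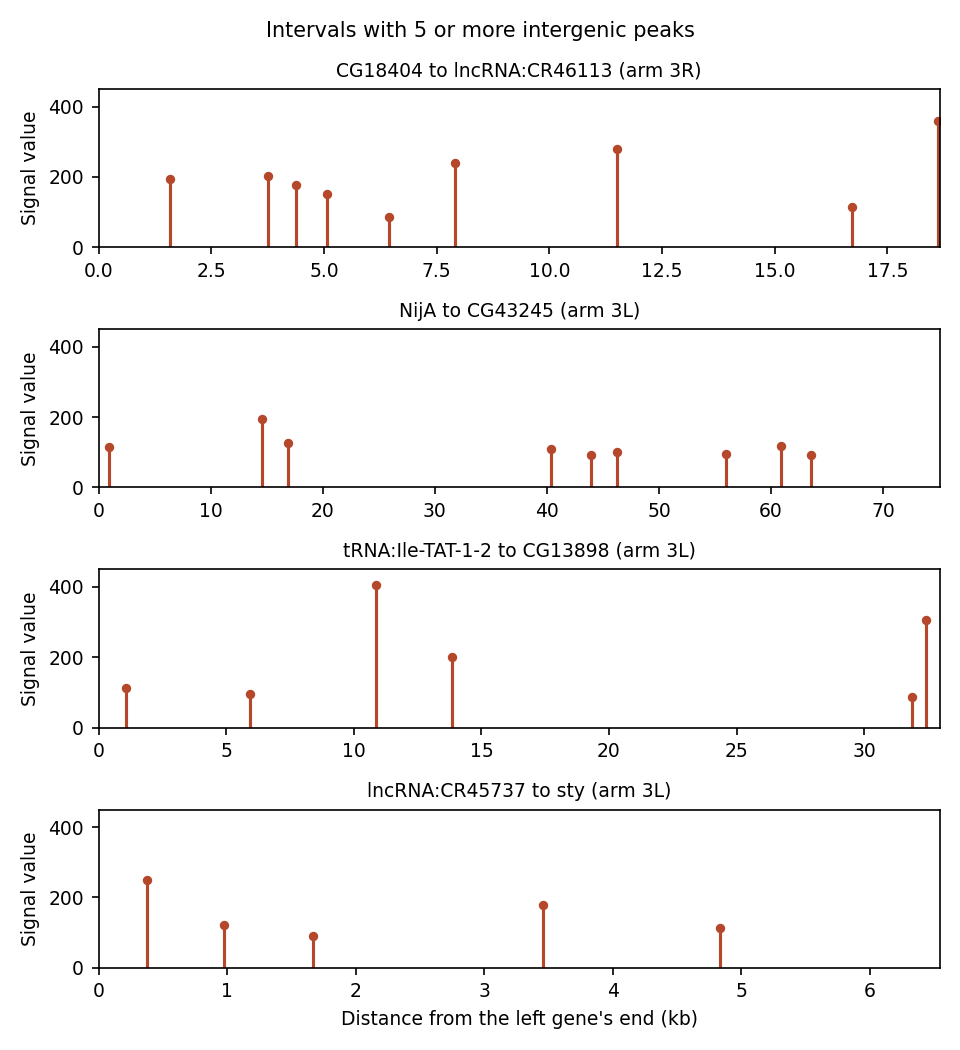
Signal of each intergenic peak (vertical, deposited IDR-list value) by its distance from the end of the left-hand gene (horizontal, kb) in the 4 intervals with 5 or more peaks, 1 stem per peak, with a horizontal scale per interval. The 9 peaks between CG18404 and lncRNA:CR46113 lie in an interval of 18664 bp, and those between NijA and CG43245 in one of 75047 bp.

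Divergent gene pairs, whose genes are transcribed away from each other, held more of the peaks than their share of sequence. Of the 468 peaks, 133 (28.4%) lay between divergent genes, which held 21.2% of the eligible sequence, that is sequence outside gene bodies and over 500 bp from a TSS (ratio 1.34, two-sided exact binomial adjusted p = 0.00067). Between convergent genes lay 113 (24.1% against 26.6% of eligible sequence, exact binomial adjusted p = 0.229), and between tandem genes 222 (47.4% against 52.2%, adjusted p = 0.0625). The divergent excess did not pass with protein-coding genes alone (ratio 1.14, exact binomial adjusted p = 0.158), without replicate 4 (ratio 1.20, adjusted p = 0.137) or among the 1690 strongest peaks (ratio 1.16, adjusted p = 0.648). Peaks of 1 interval share its orientation and are not independent, so these p-values are too small.

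Among the 5 long arms density was lowest on X and 2R. It was 16.7 peaks per Mb of eligible sequence on 2L (112 peaks, 95% exact Poisson interval 13.7 to 20.1), 8.33 on 2R (62 peaks, 6.38 to 10.7), 17.0 on 3L (152 peaks, 14.4 to 19.9) and 13.7 on 3R (105 peaks, 11.2 to 16.6). It was 16.3 on arm 4 from 4 peaks (4.44 to 41.8), but 4.08 there without replicate 4, below the 6.10 of X, and 6.29 on X from 33 peaks (4.33 to 8.84). The intervals cover counting error only. Intergenic peaks were 33 of the 471 peaks on X and 435 of the 2909 on the other arms. Males carry a single X and the larvae were of both sexes, so the dose of X and the placing of peaks cannot be told apart. With eligible sequence outside annotated transposable elements, an alternative added after the values were seen, the density was 9.81 on 2R and 7.04 on X, still below 18.5 on 2L, 19.0 on 3L and 14.5 on 3R.

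**Figure D4:**
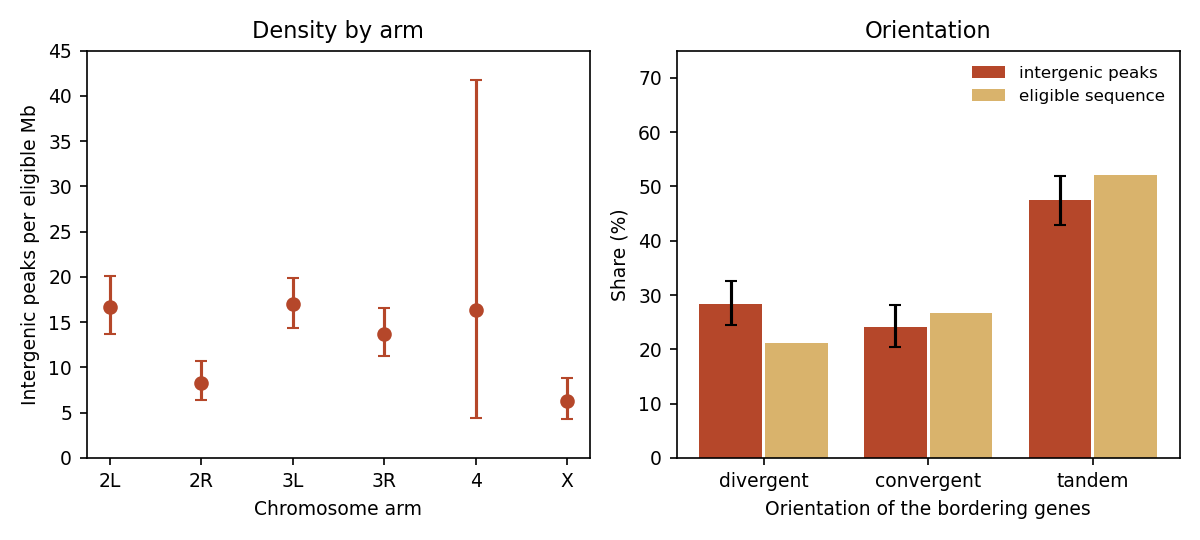
Left, intergenic peaks per Mb of eligible sequence on each arm with 95% exact Poisson intervals; right, the share of the 468 peaks (with 95% Wilson intervals) and of eligible sequence between divergent, convergent and tandem genes. The points of 2R and X, at 8.33 and 6.29 per Mb, lie below those of 2L, 3L and 3R, and 28.4% of the peaks against 21.2% of the sequence lie between divergent genes.

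Summits lay in AT-rich sequence. The mean GC content of the 201-base summit windows was 35.1% (SD 6.42), against 41.8% (SD 8.88) in windows of the same length centred 1000 bp away on a side drawn at random, and the summit was the lower of the pair in 337 of 468 peaks. Flank windows were not restricted to intergenic sequence. Windows of this length tiled without overlap over all eligible intergenic sequence, 177317 in all, averaged 40.8% (SD 8.46). Summit windows at or above the median GC of all peaks on the arms were 53.6% of intergenic, 55.2% of distal intronic and 50.2% of promoter peaks, differences that did not pass (Fisher's exact adjusted p of 0.588 and 0.408). Repeated sequence was rare at the intergenic peaks. A 36-base stretch found elsewhere in the genome occurred in 2 of their windows, against 0 of distal intronic and 18 of promoter peaks (Fisher's exact adjusted p of 0.139 and 0.19), and 1 summit, between alphaTub84B and lncRNA:CR43685, lay in an annotated transposable element.

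The Brinker site was less frequent at summits than beside them. It stood in 57 summit windows (12.2%) and 98 flank windows (20.9%), with 49 peaks holding it at the summit alone and 90 in the flank alone (exact McNemar adjusted p = 0.0105 over 33 motifs). The GC-rich Mad site, GNCGNC with A or G at the first N, overlaps the Brinker site in sequence. It stood in 89 summit windows (19.0%) and 152 flank windows (32.5%, exact McNemar adjusted p = 9.45e-05). Of the 33 motifs these 2 differed between summit and flank (6.06%), both lower at the summit. By the exact McNemar test 0 motifs were more frequent there after adjustment, and 3 at an unadjusted p under 0.05. Over the tiled intergenic windows the shares were 16.7% for the Brinker site and 25.4% for the Mad site, between those of summit and flank.

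Both differences were smaller between windows of like base composition. Among the 134 peaks whose summit and flank windows lay within 5 percentage points of GC, the Brinker site was in 20 summit windows (14.9%) and 22 flank windows (16.4%), and the Mad site in 30 (22.4%) and 31 (23.1%), with exact McNemar adjusted p of 1 for both. With the flank on the other side the adjusted p was 0.27 for the Brinker site and 0.174 for the Mad site. The Brinker site did not pass without replicate 3 (exact McNemar adjusted p = 0.266) or without replicate 4 (0.55) either, nor within 50 bp of the summit (0.0556), with the flank at 500 bp (0.182) or among the 1690 strongest peaks (0.79). Within 200 bp of the summit neither the Brinker site (exact McNemar adjusted p = 0.839) nor the Mad site (0.0729) passed. In 4 groups of 117 peaks by signal, strongest first, 13, 13, 20 and 11 held the Brinker site, with no steady order. Its share was 12.2% in intergenic, 14.4% in distal intronic and 14.9% in promoter peaks (Fisher's exact adjusted p = 0.697 for both). With a TSS distance over 2000 bp it was in 21 of 270 intergenic and 348 of 2315 promoter windows, promoters then reaching to 2000 bp, a difference that passed (Fisher's exact adjusted p = 0.0192).

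Other motifs separated the classes without being a mark of the intergenic summit. The long GAGA motif, GAGAGAG, a site of GAGA factor and CLAMP, was in 10 of 468 intergenic windows (2.14%), 98 of 1305 distal intronic windows (7.51%, Fisher's exact adjusted p = 0.000133) and 131 of 1505 promoter windows (8.70%, Fisher's exact adjusted p = 3.53e-06). The tiled intergenic windows held it at 2.19%, close to the share at the peaks. The CA repeat, CACACACA, was in 16 intergenic windows (3.42%) and 104 distal intronic ones (7.97%, Fisher's exact adjusted p = 0.00592). These were the 2 of 33 motifs that differed from distal intronic peaks (6.06%). Among windows of the same GC content neither passed (Fisher's exact adjusted p = 0.108 and 0.235), nor within 50 bp of the summit (0.178 and 0.154), among the 1690 strongest peaks (0.0718 and 0.855) or with a TSS distance over 2000 bp (0.146 and 0.0519). The CA repeat also did not pass without replicate 4 (Fisher's exact adjusted p = 0.181).

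Against promoter peaks 5 of 33 motifs differed (15.2%), all of them less frequent in intergenic windows. The core of the BEAF-32 insulator protein's site, CGATA, was in 91 intergenic windows (19.4%) and 516 promoter windows (34.3%, Fisher's exact adjusted p = 3.21e-08). The DRE, TATCGATA, a promoter element that contains this core, was in 2 intergenic windows (0.427%) and 95 promoter windows (6.31%, Fisher's exact adjusted p = 6.56e-08). The E-box CAGCTG was in 22 (4.70%) and 149 (9.90%, Fisher's exact adjusted p = 0.00422). The short GAGA motif, GAGAG, was in 105 (22.4%) and 442 (29.4%, Fisher's exact adjusted p = 0.0351), and the long one is given above. The differences in DRE and long GAGA held in every alternative run, and that in the BEAF-32 core in all but a TSS distance over 2000 bp (Fisher's exact adjusted p = 0.0569). The E-box did not pass without replicate 3 (Fisher's exact adjusted p = 0.0922), within 50 bp (0.829) or with a TSS distance over 2000 bp (0.151). The short GAGA motif did not pass in 7 alternatives, namely without replicate 4 (Fisher's exact adjusted p = 0.289), with a TSS distance over 250 bp (0.312) or 2000 bp (0.341), with the midpoint as summit (0.0603), with protein-coding genes alone (0.274), in windows of the same GC (0.235) and among the 1690 strongest peaks (0.0718).

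**Figure D5:**
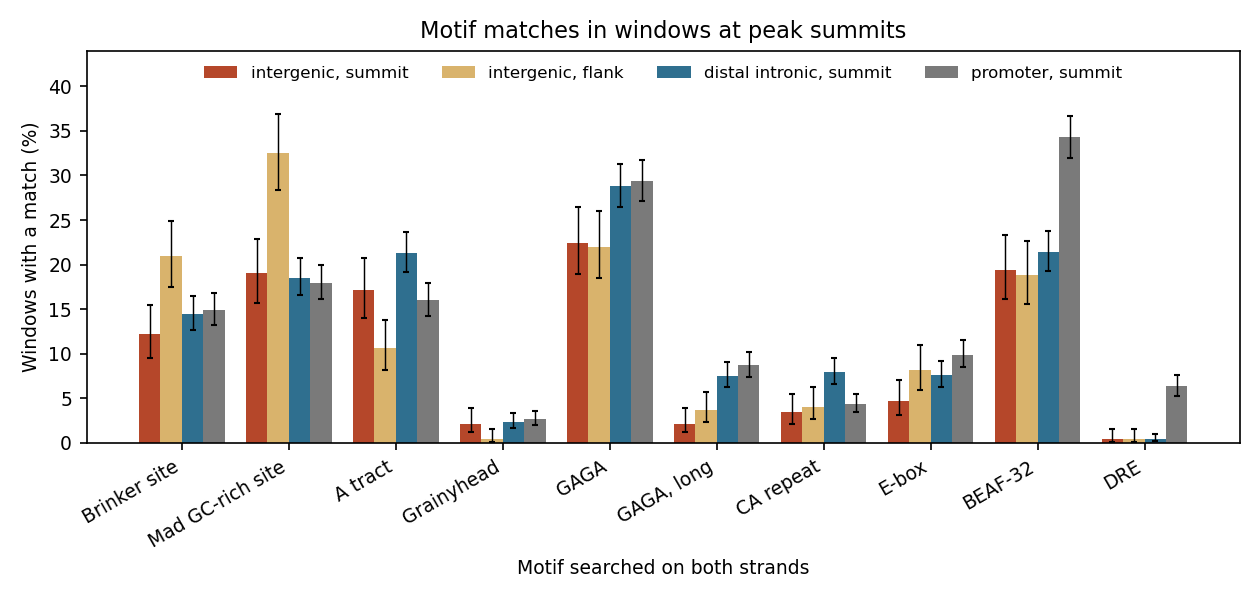
Share of 201-base windows with a match to each of 10 motifs, as bars with 95% Wilson intervals, at the summits of intergenic peaks, in their flanks, and at the summits of distal intronic and promoter peaks. The Brinker and Mad sites stand lower at intergenic summits (12.2% and 19.0%) than in the flanks (20.9% and 32.5%), and the BEAF-32 core and the DRE stand highest at promoters (34.3% and 6.31%).

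Motifs with more matches at the intergenic summit than in the flank did not pass in the main comparison, and 3 of them did under alternative settings. The Grainyhead motif, of a regulator of epidermal enhancers, was in 10 summit and 2 flank windows (exact McNemar adjusted p = 0.19) and in 0.831% of tiled windows, and it passed with protein-coding genes alone (adjusted p = 0.0174) and with a TSS distance over 250 bp (0.0141). With the flank at 500 bp it was in 10 summit and 9 flank windows, and with the flank on the other side in 10 and 6. At distal intronic and promoter summits the Grainyhead shares were 2.38% and 2.66%, against 2.14% at intergenic ones. The insulator protein motif of Suppressor of Hairy-wing, GCATACTTT, was in 6 summit and 0 flank windows (exact McNemar adjusted p = 0.19) and in 0.541% of tiled windows, and it passed with a TSS distance over 250 bp (adjusted p = 0.00806). Runs of 8 A were in 80 summit windows (17.1%) and 50 flank windows (10.7%, exact McNemar adjusted p = 0.0699). The A run passed with a TSS distance over 250 bp (exact McNemar adjusted p = 0.00738) or over 2000 bp (0.0390) and with the peak midpoint in place of the summit (0.0386). The midpoint was at or next to the summit in 385 of 468 peaks, so for most peaks that setting nearly repeats the main one. Among 6-base words, ranked as a description, ACAGTG was in 72 intergenic summit windows (15.4%) and 27 flank windows, and in 206 distal intronic (15.8%) and 211 promoter summit windows (14.0%). CTACTA was in 33 intergenic summit windows (7.05%) and 11 flank windows, and in 4.52% of distal intronic and 6.45% of promoter summit windows. CTTAAA was in 32.3% of intergenic, 22.5% of distal intronic and 25.1% of promoter summit windows. The words were picked for their ratio of summit to flank, so the low flank counts follow from the choice, and shares across the classes were similar for ACAGTG but not for CTTAAA; these differences were not tested.

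Genes bordering the intervals with peaks were counted by list. A gene counts when it is the first on either side of an interval that holds a peak, which does not make it a target. Of 13945 protein-coding genes 400 (2.87%) did so. This share depends on the length of neighbouring sequence: it was 0 of 6231 genes with no eligible sequence beside them, 1.81% for those with 1 to 2000 bp, 8.32% for over 2000 and up to 5000 bp, 7.33% for over 5000 and up to 10000 bp and 15.2% beyond 10000 bp. The median over all protein-coding genes was 49 bp. The medians of the lists differ, from 3 bp for Hedgehog pathway genes to 9652 bp for wing disc transcription factor genes. They are given beside the counts, for most tissue lists as a range.

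Of 32 Dpp pathway genes 3 bordered a peak (9.38%, median eligible sequence 40 bp). dally, a glypican gene that shapes Dpp distribution, bordered 3 peaks, the strongest 5672 bp from its own TSS with 127 in replicate 3 and 111 in replicate 4. Dad, the inhibitory Smad gene, had a peak 1098 bp from its TSS with 80.7 in replicate 3 and 79.9 in replicate 4. sog, a secreted BMP antagonist gene, bordered a weak one (59.3 and 44.9), 897 bp from the TSS of Chsy and 32109 bp from its own. No intergenic peak bordered dpp or brk.

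Of 29 genes listed as Brinker or Dpp targets 8 bordered a peak (27.6%), with a median eligible sequence of 4854 bp. They were wg, Dad, salm, tup, Doc1, Doc2, sog and Myc. wg, a Wnt ligand gene, bordered 3 peaks, the strongest 14147 bp from its TSS with 86.6 in replicate 3 and 71.5 in replicate 4. salm, a zinc finger gene patterned by Dpp in the wing, bordered 1 peak with 70.9 and 76.6, at 49725 bp from its own TSS and 3569 bp from that of lncRNA:CR43681. tup, a LIM homeobox gene, bordered 1 with 49.9 and 78.2. The T-box genes Doc1 and Doc2 bordered 1 each, with 51.3 and 64.1 beside Doc1 and 58.6 and 50.9 beside Doc2. The Myc peak, 1653 bp from its TSS, had 43.9 in replicate 3 and 54.8 in replicate 4. Of these 8 genes only Dad and Myc had their own TSS as the nearest one, and the strongest peak beside each stood below 200 on the IDR list.

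Notch pathway genes bordered peaks in 5 of 24 cases (20.8%, median eligible sequence 1790 bp). They were E(spl)malpha-BFM and fng, described among the strongest, Brd, a Bearded family gene (83.0 in replicate 3 and 89.8 in replicate 4), Ser, a Notch ligand gene (38.2 and 82.7), and numb, an inhibitor of Notch (36.2 and 60.0). The Ser and numb peaks named stood 22616 and 14770 bp from those genes' own TSSs. Ecdysone is the steroid hormone that starts metamorphosis at this stage, and 8 of 29 genes in its cascade bordered a peak (27.6%, median 2069 bp). ImpE2 and Eip63E, both among the 8, share 1 peak. Blimp-1, a transcriptional repressor gene, led with 119 in replicate 3 and 153 in replicate 4, followed by the nuclear receptor genes Hr51 (89.4 and 82.1) and Eip75B (84.9 and 70.2). The Blimp-1 peak stood 3620 bp from the TSS of Eaf6 and 19063 bp from that of Blimp-1. The Hr51 peak stood 829 bp from the TSS of unc-5 and 8318 bp from that of Hr51. The Eip75B peak stood 12122 bp from the Eip75B TSS.

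Wing disc transcription factor genes bordered peaks in 12 of 50 cases (24.0%), and their median eligible sequence of 9652 bp was the longest of the lists. Lists overlap, so their shares are not separate counts: salm, tup, Doc1 and Doc2 are also among the Brinker or Dpp targets, with the same peaks. Dad and sog are in both the Dpp pathway and target lists, and wg is in the target and Wg pathway lists. elB, C15 and salm had the strongest, at 22866, 20357 and 49725 bp from their own TSSs. Hippo pathway genes bordered peaks in 4 of 19 cases (21.1%, median 303 bp), led by ex. The peak beside ds, an atypical cadherin gene, stood 80674 bp from the ds TSS, with 55.1 in replicate 3 and 33.4 in replicate 4. Wg pathway genes bordered peaks in 5 of 25 cases (median 1118 bp), led by the receptor gene fz (101 and 95.3). The neighbours Wnt10 and Wnt6 followed and share 1 peak (64.1 and 111). Hedgehog pathway genes did so in 2 of 12 (16.7%, median 3 bp), with the receptor gene ptc at 80.2 in replicate 3 and 114 in replicate 4 and ttv, a heparan sulfate synthesis gene, at 75.1 and 65.9. Of 22 EGF and FGF pathway genes only sty did (4.55%, median 1634.5 bp).

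Tissue marker lists are short, and at the 2.87% of all protein-coding genes a list of this size may well hold no gene that borders a peak, so nothing is read from their counts. Hox and ribosomal protein genes apart, median eligible sequence ran from 86 bp for heat shock genes to 2465 bp for neuronal genes. The 2.87% is not matched to these lengths, and no matched share was computed. None of 8 Hox, 19 neuronal, 19 muscle, 19 gut, 15 blood cell, 22 cuticle, 19 germline and 17 heat shock genes did. Of 15 fat body genes 1 did, Lsp1gamma, a storage protein gene (31.9 in replicate 3 and 50.7 in replicate 4), of 13 salivary gland and glue genes 1, CrebA, a secretory regulator gene (31.1 and 56.5), and of 93 ribosomal protein genes 4 (4.30%). Led by RpL17 (78.6 in replicate 3 and 66.4 in replicate 4), the ribosomal protein genes had a median of 30 bp of eligible sequence. The 8 Hox genes had a median of 5095 bp, so eligible sequence was present beside them.

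The genes nearest to intergenic peaks were compared with those nearest to promoter peaks. For 108 of 468 intergenic peaks (23.1%) the gene with the nearest TSS was also the nearest to a promoter peak, against 507 of 1305 distal intronic peaks (38.9%). Of the 18164 annotated genes, coding or not, 7.35% were nearest to a promoter peak. That share counts each gene once, whereas the shares of peaks can count a gene several times, so they are unlike measures. The nearest TSS was not that of a protein-coding gene for 180 of the intergenic peaks, and the difference between the shares was not tested.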

How the data were processed

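ChIP-seq of tagged Brinker was analysed in 2 replicates of 1 group. The authors deposited peak lists in narrowPeak layout for dm6 and dm3; the labels name a possible control experiment, not analysed here, and roles of the lists come from the sample notes. For the aligner, the peak caller and the IDR threshold, names and versions are not given in the sources used. The deposited signal value of each peak has no stated scale; it was used to rank peaks within a list, and ratios between replicates assume a shared scale. Depth is unknown, so no interval covers it. Only dm6 lists were used. The IDR list derives from both replicates and their pool.

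Summits were placed on the Release 6 genome and the Ensembl release 115 annotation, whose arm lengths contain every dm6 peak. Peaks were compared with Fisher's exact, exact McNemar and exact binomial tests, all two-sided, with Benjamini-Hochberg adjustment and a threshold of 0.05 (Python 3.11.15, scipy 1.17.1, pandas 2.3.3, numpy 2.4.6). Peaks are not replicates of a condition, so these tests describe this list and its 2 libraries. Windows reached 100 bp on each side of a summit, with flanks at 1000 bp. Scripts were tested on simulated data.

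The members, 20 gene lists and 33 motifs were chosen with earlier results of these data known, and 2 list names were not matched. Named genes border the 25 strongest peaks, the 5 intervals with most peaks and the 5 peaks farthest from a TSS, or belong to the Dpp and Brinker target lists; of other lists the 3 with the strongest peaks are named, and a few others were picked after their values were seen. Alternatives left out each replicate, and varied the TSS distance, annotation, windows, flanks, GC matching, overlap and signal threshold.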

Additional observations from a re-analysis of the deposited data

How the results depend on the processing

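No paired analysis was possible because the 2 replicates form 1 group. Values are differences in percentage points, intergenic minus comparison peaks or summit minus flank, unless named otherwise. Of the values recomputed, 257 kept their direction and side of the threshold or moved little. Another 42 no longer passed the threshold, 8 newly passed it, 10 turned direction and 26 counts or densities moved further. Summary values and counts that did not follow, and single motifs stand in the report; causes were not tested.

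With a TSS distance over 1000 bp, the signal difference from promoters was -4.41 and not past the threshold, the replicate 3 share against introns was -6.31 and past it, and the far minus near signal difference turned to -3.96. Over 2000 bp, 270 peaks remained, 1 motif (the A run) was higher at the summit, 0 were lower than in introns and 3 lower than in promoters. With a distance over 250 bp 3 motifs were higher at the summit, and with the midpoint as summit 1; these motif values, at 250 and 2000 bp and at the midpoint, were added after the data were seen. With protein-coding genes alone, entry in both replicates against introns was 1.19 and not past the threshold, 1 motif was higher at the summit and 4 were lower than in introns, the divergent ratio was 1.14, and densities were 11.1 on 2R and 9.62 on X per Mb.

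Among the 1690 strongest peaks the signal differences were -3.59 (introns, turned) and -7.49 (promoters), entry against introns 0.872 and the replicate 3 share against promoters -8.77, none past the threshold. GC against introns turned to 5.73 and far minus near signal to -1.82, the divergent ratio was 1.16, 1 motif was lower at the summit and 0 lower than in introns. At the upper quartile of signal the difference from introns turned to -1.30.

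Motifs lower at the summit numbered 1 within 50 bp or with the flank at 500 bp (the Mad site), 1 within 200 bp (the nuclear receptor motif, exact McNemar adjusted p = 0.000169), and 0 with the other flank or pairs of like GC, where the A run turned to -0.746. Motifs lower than in introns numbered 0 within 50 bp or at the same GC.

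With the strongest peaks of 1 replicate in place of the IDR list, the signal difference from introns ranged from -3.58 to 1.30. Entry in both replicates ranged from 0.0930 to 4.53 (introns) and from 1.64 to 20.2 (promoters). The replicate 3 share ranged from -5.60 to -5.50 (introns) and from -11.8 to -6.11 (promoters). Both of these measures still read both replicates and depend on which one supplied the peaks, so they are no check of the main values. Summits in transposable elements against introns ranged from -0.0747 to 0.175, the Brinker site against introns from -0.872 to 0.171, far minus near signal from -1.63 to 4.94, and the divergent ratio from 1.20 to 1.22. Motifs lower at the summit numbered 1 to 2 and lower than in introns 1 to 4. Densities per Mb ranged from 13.4 to 17.0 on 2L, 14.3 to 18.6 on 3L, 11.1 to 14.5 on 3R and 4.08 to 16.3 on arm 4.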
